A study of Mus musculus with 12 samples.

Results

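The genes described here encode the machinery that carries new proteins into the endoplasmic reticulum (ER) and glycosylates them: the oligosaccharyltransferase, the translocon-associated (TRAP) complex, the SEC61 channel with its partners, the signal peptidase, and the signal recognition particle with its receptor. Of 35 genes named for this set, 34 had a row under their symbol among the 20586 deposited 3′ UTR features, with 1 feature each, and Srp54a was not analysed here. A filter on low counts left 33 of these genes among 8680 tested features. The gene below it was Krtcap2, whose feature is 31 bases wide.

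RNA was measured in 12 libraries of 3T3-L1 cells, a mouse preadipocyte line that turns into fat cells in culture. They were 4 CPEB4 IP libraries (RNA precipitated with an antibody to CPEB4), 4 IgG IP libraries (RNA precipitated with a control immunoglobulin) and 4 Input libraries (lysate RNA). All groups shared the same cells and treatment: induction up to day 2 with rosiglitazone (2 µM), IBMX (0.5 mM), dexamethasone (1 µM) and insulin (10 µg/mL), insulin medium up to day 8, and then 24 h with 500 µM free fatty acids, of which palmitic acid made up 300 µM and oleic and linoleic acid 100 µM each. Cells were lysed in RIPA buffer, poly(A) selection was applied to Input alone, and the labels give no group without fatty acids and no cells lacking CPEB4. The labels do not state whether replicates were separate cultures. Any p-value here therefore speaks of the spread among these libraries alone, and that spread may be technical.

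CPEB4 is a cytoplasmic polyadenylation element binding protein: it binds 3′ UTRs and regulates poly(A) tails and translation. Most secreted and membrane proteins begin synthesis on cytosolic ribosomes, are recognised by the signal recognition particle, and are passed through the SEC61 channel, where the signal peptidase removes the signal peptide and the oligosaccharyltransferase attaches N-linked glycans. Fat cells rely on this route for secreted adipokines, lipoprotein lipase and matrix proteins.

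Totals ran from 1114911 to 1159188 counts in CPEB4 IP, from 88013 to 622976 in IgG IP and from 858028 to 1578084 in Input. Levels are given as CPM, the counts per 1e+06 counts of a library scaled by TMM (trimmed mean of M-values). A floor of 3 counts in a library stood for 2.36 to 2.84 CPM in CPEB4 IP, 9.09 to 23.7 CPM in IgG IP and 1.95 to 3.04 CPM in Input, so IgG IP values of these genes often rested on a few reads. Such floors and the intervals below cover counting error only. The 34 genes held 0.494% ± 0.198 of the counts in CPEB4 IP, 0.218% ± 0.151 in IgG IP and 0.320% ± 0.0822 in Input (SD, n = 4 each). Their share was 0.638% and 0.690% in CPEB4 IP replicates 1 and 2 and 0.330% and 0.318% in replicates 3 and 4, and it was also lower in replicates 3 and 4 of IgG IP and Input. A single feature, the Lars2 3′ UTR, took between 28.6% and 63.9% of the counts of an IgG IP library. The titles carry library numbers 726 to 731 for replicates 1 and 2 and 393 to 398 for replicates 3 and 4, and replicates resembled each other most within these pairs. All 8 adipocyte markers were detected in every group. Their summed level was 20693 to 23205 CPM in CPEB4 IP, 13525 to 21813 CPM in IgG IP and 11484 to 19080 CPM in Input. Lpl (mean CPM 12635 in CPEB4 IP and 8176 in Input) and Fabp4 (6155 and 3271) made up most of it. Cd36 was also above Input (1511 and 599). Adipoq (435 and 1115), Cidec (605 and 2320), Lipe (378 and 699), Plin1 (139 and 466) and Pparg (28.0 and 39.2) were below Input. The 6 preadipocyte and fibroblast markers summed to 150 to 319 CPM in CPEB4 IP, 236 to 596 CPM in IgG IP and 1011 to 1834 CPM in Input, and the 5 muscle and neuron markers to 11.8 to 31.3, 55.8 to 109 and 217 to 327 CPM. Vim made up most of the fibroblast sum in Input (mean CPM 1194, against 28.4 in CPEB4 IP). Col1a1, Dlk1 and Thy1 were also lower in CPEB4 IP than in Input. Pdgfra (49.6 against 23.1) and Pdgfrb (33.8 against 3.77) were higher. Macrophage markers stayed at or under 61.7 CPM and endothelial markers at or under 73.0 CPM in sum in every library. The part of these levels in the results over Input was not tested. The groups shared cells and treatment, so these sums describe the RNA of each fraction and are not counts of cells.

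Set against IgG IP, CPEB4 IP held more RNA of 5 of the 33 tested genes: Rpn1 and Ostc of the oligosaccharyltransferase, Ssr2 of the TRAP complex, and Sec61a1 and Tram1 at the SEC61 channel. These are 15.2% of the tested genes, and over all features 4.57% were higher. The set was chosen with earlier results of these data known, and its genes had higher levels than all features. Their median of mean CPM was 68.0, against 35.8, and their median count in IgG IP was 25, against 20. The part of level in these shares was not tested. None of the 33 was lower, against 1.30% of all features (quasi-likelihood test of edgeR, p-values adjusted by Benjamini and Hochberg's method over the 8680 features, adjusted p of 0.05). At an unadjusted p under 0.05, 13 genes were higher (39.4%, against 14.8% of all features) and 1 was lower (3.03%, against 6.43%). DESeq2's Wald test called the same 5 genes higher (6.61% of all features it tested) and Srp72 lower (6.65%). Same-numbered libraries of these groups deviated together, and with the replicate number as a block 8 genes were higher (24.2%, against 6.01% of all features) and 0 lower (1.73%): the same 5, with Stt3a, Spcs2 and Sec11a. With replicates 1 and 2 against 3 and 4 as a 2-level block, 12 were higher (36.4%, against 7.62%) and 1 lower (3.03%, against 2.53%). The median log2 fold change of the set was 0.88, or 0.47 with Dad1, which had no IgG IP count, set at its bound, against 0.24 over all features. The 4 CPEB4 IP libraries lay above all 4 IgG IP libraries for 15 of the 33 genes (45.5%), against 23.2% of all features, and below them for 2 genes (6.06%), against 5.91%.

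The count changed with the libraries in the fit. With the 8 precipitates fitted alone, the biological coefficient of variation was 0.31, against 0.62 with Input in the fit, and 13 of the 33 genes (39.4%) were higher, against 17.1% of all features. Library scaling was redone there too, and the median log2 fold change over all features was 0.08, against 0.24. The parts of spread and scaling in this change were not tested. In that fit Srp72 was lower (3.03% of the set, against 9.00% of all features). The 13 were the 5 named above plus Ddost, Stt3a, Ssr1, Ssr3, Sec11a, Spcs2, Spcs3 and Srpr. Calls fell over all features too when libraries were left out. Without replicate 1 of all groups, edgeR called 0 members over IgG IP, with 0.0230% of all features higher and 0 lower, and 8 members higher (24.2%, against 7.93% of all features) and 1 lower (3.03%, against 5.68%) at an unadjusted p under 0.05. Without CPEB4 IP replicate 1 or CPEB4 IP replicate 2, 2 members were called higher, against 104 and 74 of the 8680 features, and without replicate 2 of all groups 1 was, against 0.369%. Without replicate 4 of all groups, or without IgG IP replicate 4, 3 were, against 1.57% and 2.44%.

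**Figure D1:**
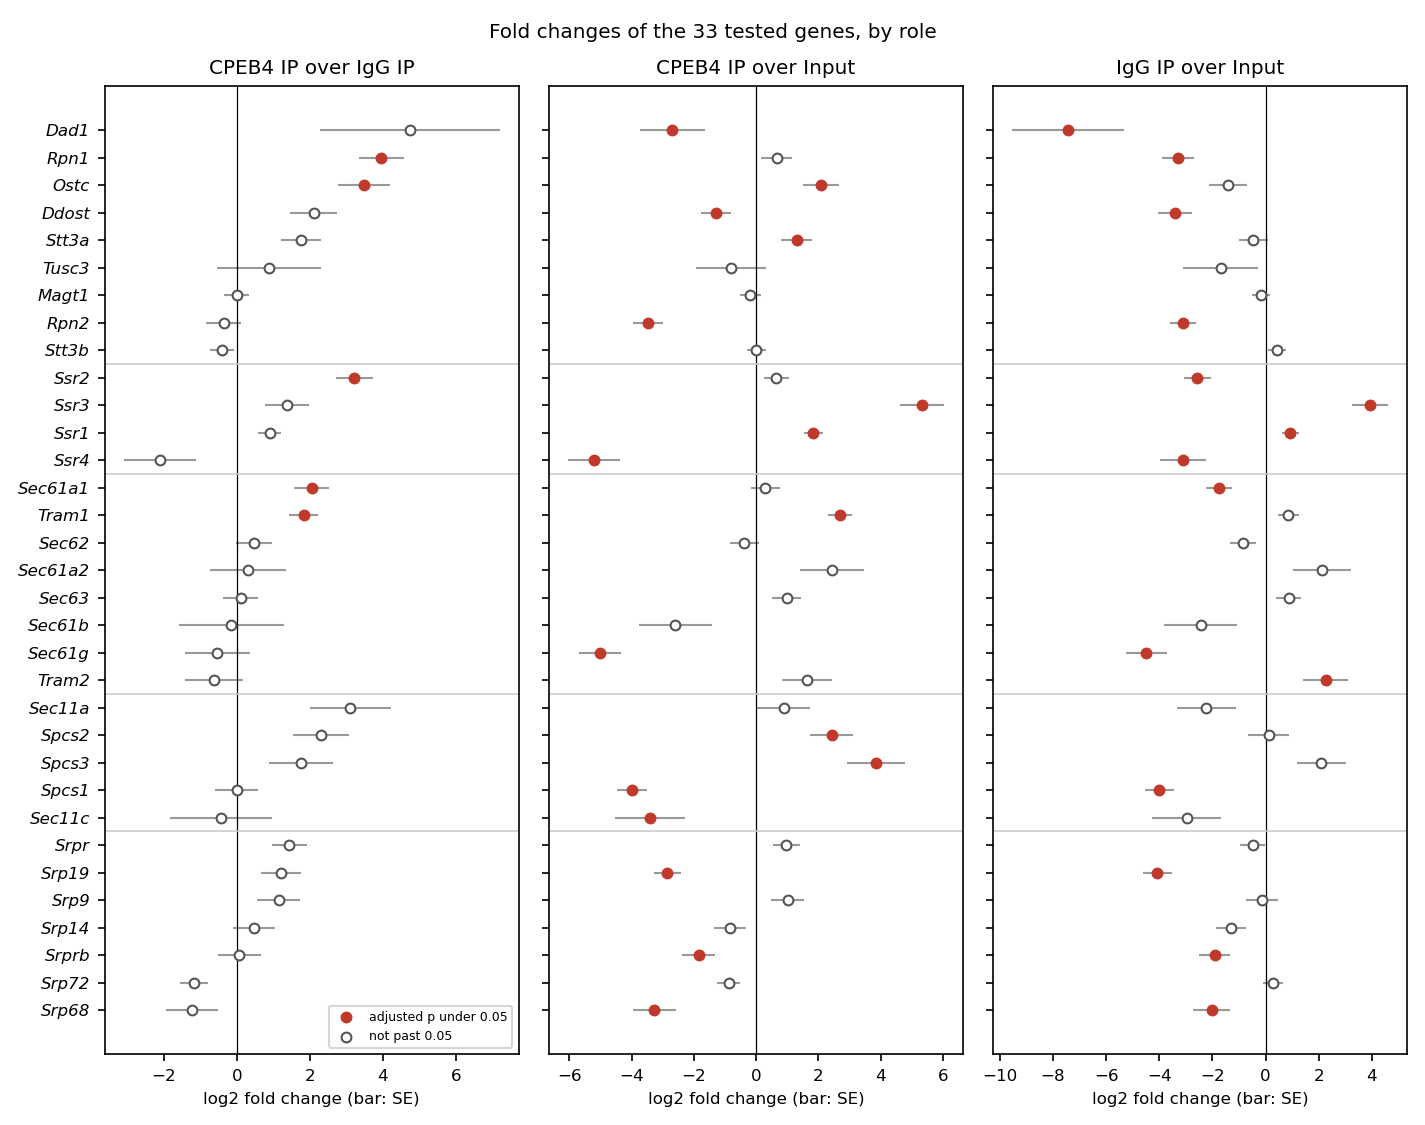
Log2 fold changes (points) with their SE (bars) of the 33 tested genes in 3 comparisons, ordered by role from the oligosaccharyltransferase at the top to the signal recognition particle at the bottom; filled points passed an adjusted p of 0.05. In CPEB4 IP over IgG IP the filled points, 5 in number, all lie right of 0, while over Input filled points lie on both sides, and the Dad1 point against IgG IP rests on 0 counts there.

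Of the genes called over IgG IP, those of the oligosaccharyltransferase had fold changes of 3.96 (Rpn1) and 3.49 (Ostc) on the log2 scale. In mammals it exists as complexes built on either of 2 catalytic subunits: STT3A, which acts beside the channel together with OSTC and KRTCAP2, and STT3B, which works with MAGT1 or TUSC3. RPN1, RPN2, DDOST and DAD1 are shared by both. Rpn1, the ribophorin I gene (mm10 chromosome 6, 88103548 to 88105304, forward strand), had 514, 574, 148 and 125 CPM in CPEB4 IP replicates 1 to 4, against 6.20, 31.6, 31.9 and 18.2 CPM in IgG IP and 224, 299, 135 and 206 CPM in Input. All CPEB4 IP libraries stood above all IgG IP libraries, replicates 1 and 2 far more than 3 and 4, and overlapped with Input. The IgG IP values rested on 1, 4, 7 and 6 counts. Over IgG IP, Rpn1 was higher by 3.96 in log2 fold change (SE 0.61, adjusted p = 0.00198). It was 4.81 within replicates 1 and 2 and 2.42 within replicates 3 and 4 (log2 ratios of mean CPM plus 0.5), and without replicate 1 the call was lost (3.26, adjusted p = 0.095).

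Ostc (chromosome 3, 130695921 to 130696459, reverse strand), the subunit tied to the STT3A complex, had 295, 304, 68.4 and 114 CPM in CPEB4 IP, against 31.0, 31.6, 9.12 and 6.06 CPM in IgG IP and 81.6, 29.1, 53.6 and 20.2 CPM in Input. Its CPEB4 IP libraries lay above every IgG IP library, with 13 counts in IgG IP in all, and in replicate 3 below Input replicate 1. Ostc was higher by a log2 fold change of 3.49 over IgG IP (SE 0.71, adjusted p = 0.00856) and 2.08 over Input (SE 0.58, adjusted p = 0.00655). The call over IgG IP was lost without replicate 1 (adjusted p = 0.11), replicate 2 (0.0784), CPEB4 IP replicate 1 (0.0634) or CPEB4 IP replicate 2 (0.0733), with fold changes of 2.97 to 3.51. Within replicates 1 and 2 the log2 ratio was 3.24, and within replicates 3 and 4 it was 3.51.

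The catalytic subunits are given side by side, since the difference between them was not tested. Stt3a had 140, 147, 81.6 and 104 CPM in CPEB4 IP, against 49.6, 23.7, 22.8 and 42.4 CPM in IgG IP and 88.4, 64.6, 19.2 and 20.2 CPM in Input. These groups of precipitates did not overlap, with a log2 fold change of 1.75 that missed the threshold in the fit of 12 libraries (SE 0.56, adjusted p = 0.0726) and 1.59 in the fit of 8 precipitates (SE 0.34, adjusted p = 0.0028). With the replicate block it was 1.72 (SE 0.48, adjusted p = 0.0457). Over Input, Stt3a was higher by 1.30 (SE 0.50, adjusted p = 0.0396), a call kept in 9 of 28 alternatives. Stt3b had 93.9, 90.5, 95.6 and 87.0 CPM in CPEB4 IP, against 161, 150, 95.7 and 87.9 CPM in IgG IP and 84.6, 90.1, 98.2 and 91.8 CPM in Input. Its log2 fold change was -0.41 over IgG IP (SE 0.33, adjusted p = 0.504) and 0.01 over Input (SE 0.32, adjusted p = 0.983), the lowest of the complex against IgG IP. Magt1, the partner of STT3B, had 145 to 204 CPM in CPEB4 IP, 115 to 237 CPM in IgG IP and 114 to 258 CPM in Input, with a fold change of -0.01 (log2 over IgG IP; SE 0.35).

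The shared subunits did not move as a unit. Rpn2, ribophorin II (chromosome 2, 157325724 to 157326319), had 42.5, 37.8, 28.0 and 16.1 CPM in CPEB4 IP, against 43.4, 31.6, 27.4 and 54.5 CPM in IgG IP and 503, 435, 127 and 325 CPM in Input. Both precipitates lay below Input without overlap, by -3.47 in CPEB4 IP (SE 0.47, adjusted p = 1.46e-05) and by -3.11 in IgG IP (SE 0.49, adjusted p = 0.000123), while CPEB4 IP and IgG IP overlapped. Ddost, the OST48 subunit, had 31.3, 59.0, 19.8 and 19.9 CPM in CPEB4 IP, against 6.20, 15.8, 4.56 and 6.06 CPM in IgG IP and 107, 92.8, 65.8 and 54.1 CPM in Input. It lay between the other groups, lower than Input in CPEB4 IP by -1.29 (SE 0.49, adjusted p = 0.0366) and in IgG IP by -3.40 (SE 0.64, adjusted p = 0.00056). Its log2 fold change over IgG IP was 2.10 in the fit of 12 libraries (SE 0.65, adjusted p = 0.0658) and 2.00 in the fit of 8 precipitates (adjusted p = 0.0269).

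The remaining subunits were near the limit of counting. Dad1 had 17 counts over the 4 CPEB4 IP libraries and none in IgG IP, which the floor of 3 counts leaves without a fold, and it was lower than Input in CPEB4 IP by -2.69 (SE 1.06, adjusted p = 0.0455). Against 115 counts in Input, taken as exact, its IgG IP level was 6.47-fold lower when set at a bound of 3 counts over the 4 IgG IP libraries together. The Dad1 feature ends 4176 bases short of the gene's end in RefSeq (GRCm38.p6), so its counts need not stand for the whole of the gene's RNA. Krtcap2 had 26 counts in CPEB4 IP and none in IgG IP. With IgG IP set at the same bound and the CPEB4 IP count taken as exact, this was 1.52-fold higher, untested. Tusc3, whose feature stops 1938 bases short of the RefSeq end, had 35 counts in CPEB4 IP and 3 in IgG IP, a ratio of 2.04 with an exact 95% interval of 0.643 to 10.4.

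**Figure D2:**
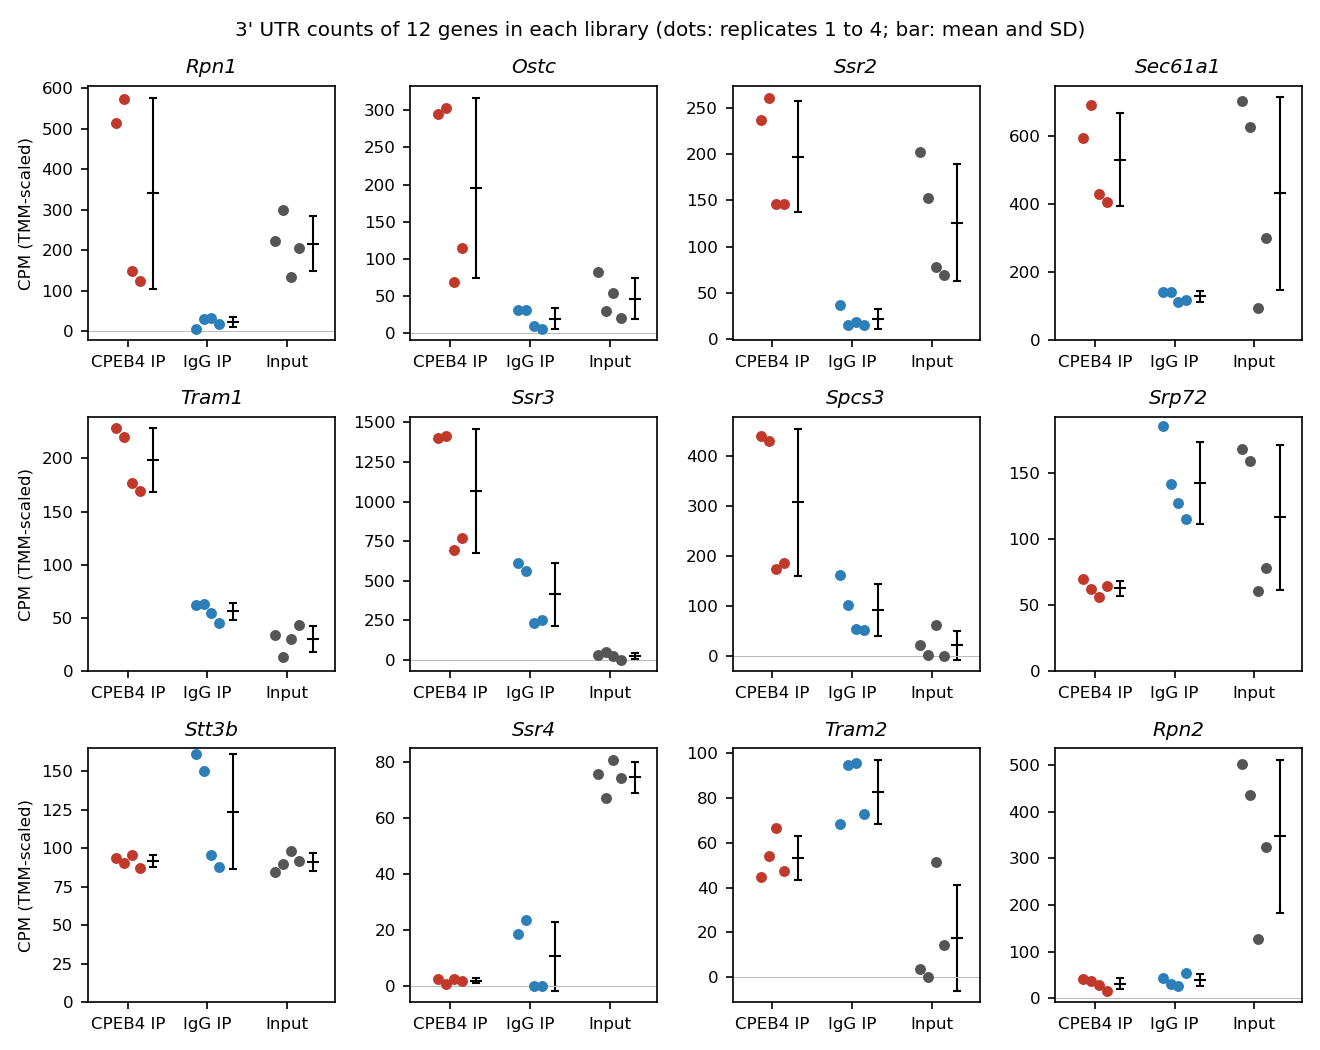
Scaled counts (CPM) of 12 genes in each library, with CPEB4 IP, IgG IP and Input from left to right in each panel; dots are replicates 1 to 4 from left to right and the bar gives the mean and SD. The CPEB4 IP dots of Rpn1, Ostc, Ssr2, Sec61a1 and Tram1 all lie above the IgG IP dots, and the Rpn2 and Ssr4 dots of both precipitates lie below the Input dots.

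The TRAP complex sits beside the channel and assists the insertion of some substrates. Of its 4 genes, Ssr2 was called over IgG IP, Ssr1 and Ssr3 were higher than Input in both precipitates, and Ssr4 was lower than Input in both. Ssr2, TRAP beta (chromosome 3, 88587992 to 88588397, forward strand), had 237, 261, 146 and 146 CPM in CPEB4 IP, against 37.2, 15.8, 18.2 and 15.2 CPM in IgG IP and 202, 153, 77.9 and 69.7 CPM in Input. CPEB4 IP lay above IgG IP in every library and overlapped with Input, and the IgG IP libraries held 17 counts. Ssr2 was higher than in IgG IP by 3.22 in log2 fold change (SE 0.51, adjusted p = 0.00212), and 3.21 and 3.09 within the 2 pairs of replicates. Without replicate 1 the adjusted p was 0.058, and without replicate 2 it was 0.0565. Over Input it stood at 0.65 (SE 0.41, adjusted p = 0.193), and IgG IP was lower than Input by -2.57 (SE 0.50, adjusted p = 0.000717).

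Ssr3, TRAP gamma (chromosome 3, 65379655 to 65381967, reverse strand), was the most counted gene of the set. It had 1401, 1414, 692 and 772 CPM in CPEB4 IP, against 614, 560, 232 and 252 CPM in IgG IP and 29.2, 49.1, 28.3 and 1.30 CPM in Input. Both precipitates lay far above Input, by 5.32 in CPEB4 IP (SE 0.71, adjusted p = 1.37e-05) and by 3.94 in IgG IP (SE 0.68, adjusted p = 0.000248). The step between the precipitates was 1.38 (SE 0.60, adjusted p = 0.196), and 1.19 in the fit of 8 precipitates (adjusted p = 0.0258). Ssr1, TRAP alpha, with a feature of 8338 bases, had 330 to 551 CPM in CPEB4 IP, 191 to 310 CPM in IgG IP and 106 to 170 CPM in Input. Its groups did not overlap in that order. On the log2 scale the difference was 1.83 for CPEB4 IP over Input (SE 0.31, adjusted p = 0.00013), 0.93 for IgG IP over Input (SE 0.31, adjusted p = 0.0237) and 0.90 for CPEB4 IP over IgG IP (SE 0.31, adjusted p = 0.0977).

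The feature of Ssr4, TRAP delta, 68 bases wide, had 2.41, 0.787, 2.47 and 1.89 CPM in CPEB4 IP, against 18.6, 23.7, 0 and 0 CPM in IgG IP and 75.7, 67.3, 81.0 and 74.3 CPM in Input. It was lower than Input by -5.20 in CPEB4 IP (SE 0.84, adjusted p = 8.61e-05) and by -3.10 in IgG IP (SE 0.86, adjusted p = 0.0085), and with 9 and 6 counts the precipitates could not be separated from each other (log2 fold change -2.11, SE 1.00, adjusted p = 0.237). The split by replicate pair was wide: the log2 ratio of CPEB4 IP to IgG IP was -3.37 within replicates 1 and 2 and 2.42 within replicates 3 and 4.

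At the channel, Sec61a1, the main pore-forming subunit (chromosome 6, 88503601 to 88505106, reverse strand), had 595, 694, 430 and 407 CPM in CPEB4 IP, against 143, 142, 114 and 118 CPM in IgG IP and 704, 629, 94.1 and 302 CPM in Input. The precipitates did not overlap, and Input spanned both. Sec61a1 was higher than in IgG IP by 2.05 in log2 fold change (SE 0.49, adjusted p = 0.0219), with 2.17 and 1.84 within the pairs of replicates. This call was kept in 14 of 28 alternatives, with fold changes from 1.58 to 2.17. It was lost without replicate 1, 2 or 4, without CPEB4 IP replicate 1 or 2, without any 1 of the 4 IgG IP libraries, and without Input replicate 2 or 4, at adjusted p from 0.0567 to 0.237. Over Input it stood at 0.30 (SE 0.45, adjusted p = 0.609).

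Tram1, which helps nascent chains enter the channel (chromosome 1, 13564702 to 13566322, reverse strand), had 228, 219, 176 and 169 CPM in CPEB4 IP, against 62.0, 63.1, 54.7 and 45.5 CPM in IgG IP and 34.5, 13.7, 30.4 and 43.6 CPM in Input. Every CPEB4 IP library lay above every library of the other groups. It was higher by a log2 fold change of 1.83 over IgG IP (SE 0.40, adjusted p = 0.0128) and 2.69 over Input (SE 0.39, adjusted p = 2.85e-05). Over IgG IP the call was kept in 19 of 28 alternatives. It was lost without replicate 1, 2, 3 or 4, without CPEB4 IP replicate 1 or 2 and without IgG IP replicate 4, with fold changes of 1.59 to 1.83 and adjusted p from 0.0524 to 0.178. Ostc and Tram1 were the 2 genes of the set called higher over IgG IP and over Input.

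Tram2, a relative of Tram1, had 44.9, 54.3, 66.8 and 47.3 CPM in CPEB4 IP, against 68.3, 94.7, 95.7 and 72.7 CPM in IgG IP and 3.75, 0, 51.6 and 14.3 CPM in Input. CPEB4 IP lay just below IgG IP without overlap, by a log2 fold change of -0.63 that missed the threshold (SE 0.80, adjusted p = 0.682), and IgG IP was higher than Input by 2.26 (SE 0.84, adjusted p = 0.0415). With the replicate block CPEB4 IP was higher than Input too, by 2.23 (SE 0.82, adjusted p = 0.0327). The Tram2 feature runs 5101 bases past the RefSeq gene end, so most of its 5266 bases lie outside the gene as annotated there. Its counts need not stand for the gene's RNA.

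The other channel genes did not pass the test over IgG IP. Sec61a2, a second pore subunit, had 100 counts in CPEB4 IP and 14 in IgG IP, and its whole feature of 848 bases overlaps that of Nudt5 on the opposite strand, so its counts are uncertain. Sec61b, the beta subunit, had 31 and 5 counts, with a fold change of -0.16 (log2; SE 1.44). Sec62 and Sec63, which assist the entry of proteins whose synthesis is complete, stood at 0.47 (SE 0.49) and 0.11 (SE 0.47), and over Input Sec63 stood at 0.97 (adjusted p = 0.0839) and was higher with the replicate block (1.05, adjusted p = 0.0323). Sec61g, the gamma subunit, had 2.41, 7.87, 1.65 and 0.946 CPM in CPEB4 IP, against 6.20, 0, 9.12 and 3.03 CPM in IgG IP and 133, 147, 70.9 and 89.2 CPM in Input. Both precipitates were lower than Input for Sec61g, CPEB4 IP by -5.02 (SE 0.68, adjusted p = 1.46e-05) and IgG IP by -4.48 (SE 0.77, adjusted p = 0.000249). Its feature runs 1108 bases past the RefSeq gene end, so most of its 1268 bases lie outside the gene as annotated there. The Sec61g counts need not stand for the gene's RNA.

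None of the 5 signal peptidase genes was called over IgG IP in edgeR's fit of 12 libraries or by DESeq2. At an unadjusted p under 0.05, 2 were higher, against 14.8% of all features. With the replicate block 2 were called higher, against 6.01% of all features: Spcs2 (2.05, SE 0.52, adjusted p = 0.0296) and Sec11a (3.27, SE 0.92, adjusted p = 0.0458). CPEB4 IP lay above IgG IP without overlap for 3 of the 5, against 23.2% of all features. Spcs3, an essential subunit, had 440, 429, 173 and 185 CPM in CPEB4 IP, against 161, 103, 54.7 and 51.5 CPM in IgG IP and 22.5, 1.82, 61.7 and 0 CPM in Input. Its log2 fold change was 1.76 over IgG IP (SE 0.88, adjusted p = 0.266) and 3.86 over Input (SE 0.93, adjusted p = 0.00236). Spcs2 had 220, 291, 75 and 74.7 CPM in CPEB4 IP, against 43.4, 39.5, 36.5 and 18.2 CPM in IgG IP and 64.4, 43.7, 11.1 and 3.91 CPM in Input. It stood at 2.31 over IgG IP (SE 0.76, adjusted p = 0.0826) and was higher than Input by 2.42 (SE 0.70, adjusted p = 0.00802). Sec11a, a catalytic subunit, had 112, 129, 39.6 and 48.3 CPM in CPEB4 IP, against 6.20, 31.6, 4.56 and 3.03 CPM in IgG IP, which are 7 counts in all, and 75.7, 80.1, 0 and 22.1 CPM in Input. Its log2 fold change over IgG IP was 3.11 (SE 1.12, adjusted p = 0.112). In the fit of 8 precipitates, where 17.1% of all features were higher, all 3 passed. Their adjusted p was 0.00821 for Spcs3, 0.00433 for Spcs2 and 0.00268 for Sec11a.

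The other signal peptidase genes were lower in CPEB4 IP than in Input. Spcs1 had 32.1, 27.5, 14.0 and 10.4 CPM in CPEB4 IP, against 24.8, 39.5, 4.56 and 21.2 CPM in IgG IP and 422, 369, 296 and 267 CPM in Input. CPEB4 IP was lower than Input by -4.00 (SE 0.48, adjusted p = 5.08e-06) and IgG IP by -3.99 (SE 0.53, adjusted p = 2.67e-05), and they did not separate from each other (log2 fold change -0.00, SE 0.59). Sec11c, the alternative catalytic subunit, had 2.41, 4.72, 1.65 and 1.89 CPM in CPEB4 IP, against 12.4, 0, 0 and 3.03 CPM in IgG IP and 55.4, 36.4, 0 and 27.4 CPM in Input. With 13 counts in CPEB4 IP and 3 in IgG IP, the ratio was 0.758 with an exact 95% interval of 0.208 to 4.15, and CPEB4 IP was lower than Input by -3.41 (SE 1.12, adjusted p = 0.0172), a call lost with the replicate block (-2.75, adjusted p = 0.0578).

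The signal recognition particle and its receptor had no call over IgG IP among 7 tested genes in edgeR's fit of 12 libraries, with log2 fold changes from -1.23 to 1.44. At an unadjusted p under 0.05, 2 were higher and 1 lower, against 14.8% and 6.43% of all features. DESeq2 called Srp72 lower, as it did 6.65% of the features it tested. Srp72, which forms a dimer with SRP68 in the particle, had 69.8, 62.2, 56.1 and 64.3 CPM in CPEB4 IP, against 186, 142, 128 and 115 CPM in IgG IP and 169, 159, 60.7 and 78.2 CPM in Input. CPEB4 IP lay below IgG IP in every library, by -1.17 in the fit of 12 libraries (SE 0.39, adjusted p = 0.0892) and by -1.32 in the fit of 8 precipitates (SE 0.27, adjusted p = 0.00187). Srp68 had 8.83, 5.51, 10.7 and 14.2 CPM in CPEB4 IP, against 24.8, 0, 31.9 and 30.3 CPM in IgG IP and 141, 116, 21.3 and 102 CPM in Input. Its precipitates overlapped because IgG IP replicate 2 had no count (log2 fold change -1.23, SE 0.71, adjusted p = 0.339), and CPEB4 IP was lower than Input by -3.27 (SE 0.68, adjusted p = 0.000744).

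Srpr, the receptor subunit that docks the particle at the ER, was the member of this role with the highest fold change over IgG IP, at 111, 160, 66.0 and 95.6 CPM in CPEB4 IP, against 37.2, 55.2, 36.5 and 33.3 CPM in IgG IP and 89.9, 51.9, 24.3 and 55.4 CPM in Input. Its log2 fold change was 1.44 (SE 0.48, adjusted p = 0.0862), and 1.31 in the fit of 8 precipitates (adjusted p = 0.013). Over Input it stood at 0.96 (adjusted p = 0.0734), and with the replicate block it was higher by 0.99 (SE 0.40, adjusted p = 0.0485). The Srpr feature overlaps 50 bases of Fam118b on the opposite strand. Srprb, the membrane anchor of the receptor, stood at 0.07 over IgG IP (SE 0.59) and was lower than Input by -1.85 in CPEB4 IP (SE 0.54, adjusted p = 0.00851). Srp19, which prepares the particle's RNA for its GTPase subunit, had 12.3 to 20.9 CPM in CPEB4 IP, 6.06 to 9.12 CPM in IgG IP and 91.0 to 182 CPM in Input, and was lower than Input by -2.86 in CPEB4 IP (SE 0.43, adjusted p = 4.51e-05). Srp9 and Srp14, which form the dimer that slows elongation, stood at 1.15 (SE 0.59) and 0.47 (SE 0.57) over IgG IP. Neither had a call in any comparison of the fit without a block.

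Over Input, the set split. CPEB4 IP was higher for 7 of the 33 genes (21.2%, against 27.6% of all features): Ssr3, Spcs3, Tram1, Spcs2, Ostc, Ssr1 and Stt3a. It was lower for 10 (30.3%, against 26.3% of all features): Ssr4, Sec61g, Spcs1, Rpn2, Sec11c, Srp68, Srp19, Dad1, Srprb and Ddost. The median log2 fold change was 0.01, against 0.29 over all features. IgG IP was higher than Input for 3 genes (9.09%, against 17.5%), Ssr3, Tram2 and Ssr1, and lower for 12 (36.4%, against 23.9%), which were Rpn1, Sec61a1, Ssr2 and 9 of the 10 genes that were also lower in CPEB4 IP. The median of IgG IP over Input was -1.41, against -0.07 over all features. The shares for CPEB4 IP over Input lay near those of all features, as they did with the replicate block, where 10 genes were higher (30.3%, against 31.1%) and 9 lower (27.3%, against 24.9%). Of the 17 calls for CPEB4 IP over Input, 8 were made in every alternative (Ssr3, Tram1, Ssr1, Ssr4, Sec61g, Spcs1, Rpn2 and Srp19). Ostc and Spcs2 lost theirs without replicate 2, CPEB4 IP replicate 1 or CPEB4 IP replicate 2, Spcs2 also without Input replicate 3, and Srprb without replicate 2. Stt3a, Dad1, Ddost and Sec11c were lost in 19, 12, 12 and 7 alternatives, among them the omission of several single libraries from both groups for the first 3 and of CPEB4 IP replicate 3 or 4 for Sec11c. Spcs3 and Srp68 lost theirs only with replicates 3 and 4 alone, where Ostc, Srprb, Dad1, Ddost and Sec11c were not called either. Of the 15 calls for IgG IP over Input, 9 were made in every alternative, and Ssr1, Tram2, Srp68, Sec61a1, Srprb and Dad1 were not. Both comparisons share the Input libraries, and Input alone had been poly(A)-selected, so that selection and precipitation cannot be told apart in them.

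The width of the 3′ UTR feature moved with the fold change over Input. Over the 33 genes, the Spearman correlation of width with the log2 fold change was 0.54 for CPEB4 IP over Input and 0.55 for IgG IP over Input, against 0.48 and 0.59 over all 8680 features. For CPEB4 IP over IgG IP it was 0.18 in the set and -0.01 over all features. These are correlations across genes, which share libraries and are not independent replicates. Of 16 genes with a feature under 1000 bases, 1 was higher and 7 were lower in CPEB4 IP over Input (43.8% lower, against 49.6% of all such features). Of 17 wider ones, 6 were higher and 3 lower (35.3% higher, against 38.5%). Over IgG IP, 2 of the 16 narrow ones (12.5%, against 4.84% of all such features) and 3 of the 17 wide ones (17.6%, against 4.40%) were higher. The part of width in the results over Input was not tested further.

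**Figure D3:**
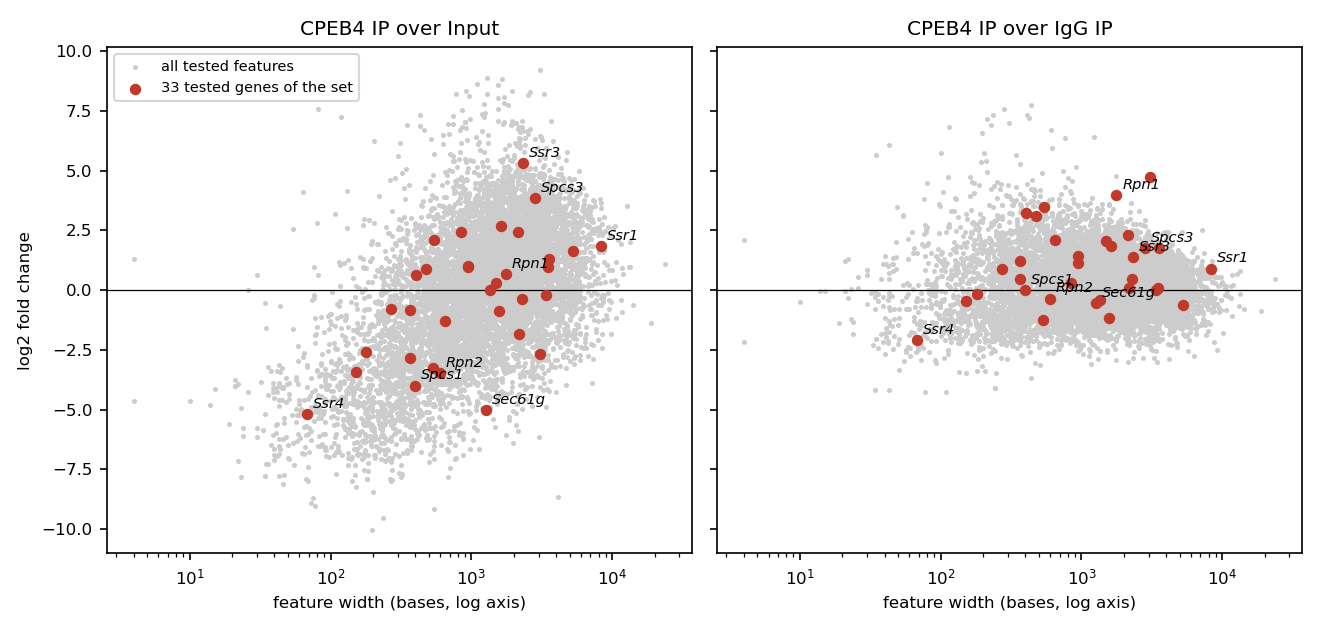
Log2 fold change of CPEB4 IP over Input and over IgG IP against feature width in bases (log axis), for all 8680 tested features (grey) and the 33 tested genes (red, some named). Over Input the cloud climbs with width and the members follow it, from Ssr4 at 68 bases and -5.20 to Ssr3 at 2313 bases and 5.32, while over IgG IP there is no such slope.

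Levels per length showed which RNAs led each fraction. In CPEB4 IP the highest mean levels per kilobase were those of Ssr2 (486 CPM per kb), Ssr3, Ostc (363 CPM per kb) and Sec61a1 (353 CPM per kb). In Input they were Ssr4 (1096 CPM per kb), Spcs1 (853 CPM per kb), Rpn2 (583 CPM per kb) and Srp19 (337 CPM per kb). The 4 genes that led Input per length were all among those lower in CPEB4 IP than in Input. As they were picked by their Input level, this is no separate result. All 4 features are under 1000 bases wide, and 49.6% of all such features were lower in CPEB4 IP over Input. The Ssr4 feature is 68 bases wide, and how reads crossing its ends were counted is not given in the sources used here.

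Paired subunits were also set against each other within each library, as log2 ratios of counts plus 0.5, which do not depend on the scaling of libraries. The pairs were chosen with values known, so the ratios are a description. Rpn1 over Rpn2 was 2.39 to 3.91 in CPEB4 IP, against -2.32 to 0.21 in IgG IP and -1.16 to 0.09 in Input. Stt3a over Stt3b was -0.23 to 0.70 in CPEB4 IP, against -2.48 to -1.02 in IgG IP and -2.32 to 0.06 in Input. Ratios of these pairs did not overlap between the precipitates. Tram1 over Tram2 was between 1.40 and 2.33 in CPEB4 IP, against -0.78 to -0.13 in IgG IP and -0.76 to 4.95 in Input. Most of the Tram2 feature lies past the RefSeq gene end. Sec11a over Sec11c was between 4.28 and 5.32 in CPEB4 IP, against -0.74 to 3.17 in IgG IP and -0.30 to 1.13 in Input, and rested on 13 and 3 counts of Sec11c in the precipitates. Sec61a1 over Sec61a2 (3.84 to 5.93 in CPEB4 IP, 2.04 to 3.97 in IgG IP, 6.02 to 9.86 in Input) and Magt1 over Tusc3 (3.22 to 6.96, 3.79 to 6.27 and 2.70 to 8.70 in the same order) overlapped between the precipitates.

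**Figure D4:**
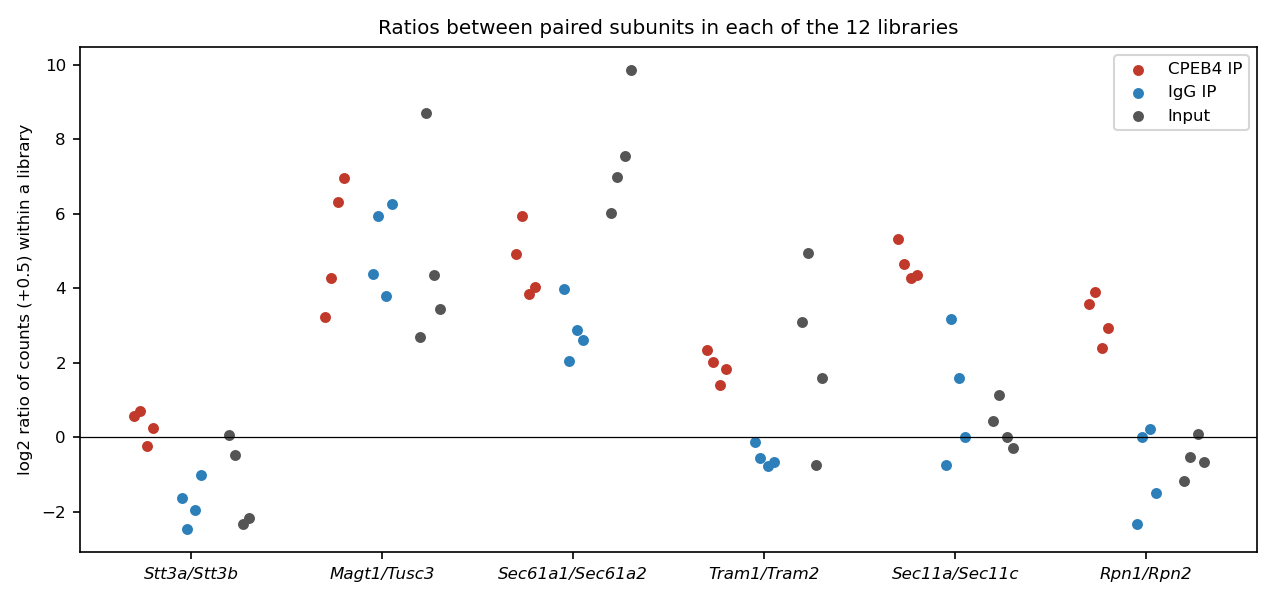
Log2 ratio of counts plus 0.5 between paired genes in each library (1 dot per library), with CPEB4 IP, IgG IP and Input from left to right within each pair. The CPEB4 IP dots of Stt3a/Stt3b, Tram1/Tram2, Sec11a/Sec11c and Rpn1/Rpn2 all lie above the IgG IP dots of the same pair.

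The authors' deposited table holds an interaction of the precipitates with Input, which it called higher for 5 of the 34 genes (2.27% of 19051 features with a call): Rpn1, Ssr2, Ostc, Tram1 and Ddost. It was called lower for Ssr4 and Srp72 (3.28% of features). Of these, Rpn1 (log2 fold change 3.64, adjusted p = 0.000879), Ssr2 (2.90, 0.00871) and Ostc (3.08, 0.0359) had an adjusted p under 0.05 in the authors' deposited table. Sec61a1 was not called there (1.69, unadjusted p = 0.0505).

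Neighbouring pathways are set beside the 4.57% of all features that were higher and the 1.30% that were lower over IgG IP. At an unadjusted p under 0.05 these shares were 14.8% and 6.43%, and by DESeq2 they were 6.61% and 6.65%. Of 24 tested genes for other routes of ER insertion, edgeR called 0 higher (0 at an unadjusted p under 0.05, 0 by DESeq2) and 1 lower (4 at an unadjusted p under 0.05). The lower gene was Sgta, a chaperone of tail-anchored proteins, by -1.38 (SE 0.38, adjusted p = 0.0396), and DESeq2 called 4 lower, Sgta, Emc10, Ncln and Ubl4a. Of 18 tested genes that build the lipid-linked glycan donor, edgeR called 0 (2 higher and 1 lower at an unadjusted p under 0.05, and 1 lower by DESeq2, Dhdds). Of 8 tested genes for further oligosaccharyltransferase subunits and glycan trimming, Mogs, the glucosidase that starts trimming, was higher by 3.16 (SE 0.80, adjusted p = 0.0285), on 7 IgG IP counts, 2 were higher at an unadjusted p under 0.05, and 0 were lower at either threshold or by DESeq2. Of 4 tested GPI transamidase genes, edgeR and DESeq2 called 0 (1 lower at an unadjusted p under 0.05). Of 3 tested genes of signal peptide peptidase and ER ribosome binding, 0 were higher by edgeR at either threshold or by DESeq2, and Rrbp1 (-2.37, SE 0.38, adjusted p = 0.00221) and Lrrc59 (-1.41, SE 0.34, adjusted p = 0.0219), both ribosome-binding ER proteins, were lower. These 4 calls were lost without replicate 1 or replicate 2 of all groups. Rrbp1 was called in 24 of 27 alternatives, Lrrc59 in 16 of 27, Sgta in 12 of 27 and Mogs in 13 of 26. Without replicate 4, CPEB4 IP replicate 1, CPEB4 IP replicate 2, IgG IP replicate 2 or IgG IP replicate 4, the calls of Lrrc59, Sgta and Mogs were lost. So were those of Lrrc59 and Sgta without CPEB4 IP replicate 4, of Sgta and Mogs without IgG IP replicate 3, of Sgta without CPEB4 IP replicate 3 or IgG IP replicate 1, and of Mogs without Input replicate 2 or 4.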

How the data were processed

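The authors deposited raw read counts per 3′ UTR feature for 12 libraries in mm10 coordinates, with log2 normalised counts and their own DESeq2 columns, which were read as scores. Tools named in the submitters' processing notes are DESeq2 1.22.1, featureCounts, Bowtie2 2.2.2 and Bowtie 1.2.3, in no stated order. The annotation release and the use of strand in counting are not given in the sources used here, so overlapping features are named as uncertain. Groups and replicate numbers came from the sample titles.

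Members and lists were chosen with earlier results of these data known. The highest-count feature stood for each gene. Values in each library were given for members past the threshold over IgG IP and, per role, for the tested member with the highest mean CPM and that with the lowest fold change. Those of Rpn2, Ddost, Stt3a, Sec61g, Spcs1, Spcs2, Sec11a and Srpr were added after their values were seen. In the other lists, genes past the threshold were named. Where RefSeq was used (GRCm38.p6), it gave gene ends, and all 34 members matched by symbol.

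The deposited counts were analysed with edgeR 4.0.16 under R 4.3.3 (filterByExpr, minimum count 10, minimum total 15; TMM; quasi-likelihood fit of all 12 libraries, prior count 0.125, Benjamini-Hochberg over 8680 features, adjusted p of 0.05). The SE is the log2 fold change divided by the square root of F. DESeq2 1.42.0 was an alternative. Replicate numbers come from the titles, which do not say what a number shares. Deviations of same-numbered libraries from their group means correlated at 0.181 to 0.321 between CPEB4 IP and IgG IP and at 0.183 to 0.273 between CPEB4 IP and Input, with every pair over 0.1, so the numbers were taken to pair these groups, although only 3 and 2 of 4 libraries correlated best with their own number. Between IgG IP and Input they ran from 0.0717 to 0.172, with replicate 2 under 0.1, and the numbers were not taken to pair them. Yet 3 of 4 of these libraries correlated best with their own number. A number that pairs CPEB4 IP with both other groups would pair those groups too, so the pairing is uncertain. The part of the difference between replicates 1 and 2 and replicates 3 and 4 in these correlations was not tested. The fit had no block, and fits with it are given where a call or count of members changed. Features without a symbol (697) were tested but not named. Alternatives changed the scaling, the filter, the test, the block and the libraries.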

Additional observations from a re-analysis of the deposited data

Results flagged for a closer look

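In 3 of 102 groups of 4 libraries (2.94%), Dixon's test set a single library apart from the others of its group; chance sets apart about 1 group in 20. All were IgG IP libraries with few counts. Ddost had 15.8 CPM in IgG IP replicate 2, from 2 counts, against 4.56 to 6.20 CPM in the other IgG IP libraries. Sec11a had 31.6 CPM in IgG IP replicate 2, from 4 counts, against 3.03 to 6.20 CPM. Ssr2 had 37.2 CPM in IgG IP replicate 1, from 6 counts, against 15.2 to 18.2 CPM. CPEB4 IP lay above the libraries set apart in all 4 libraries for each of these genes.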

How the results depend on the processing

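IgG IP had the lowest depth: its libraries held as few as 88013 counts, and Dad1 and Krtcap2 had no count there. No member called in a comparison changed sign in an alternative of that comparison, whereas 12, 7 and 7 uncalled members did (CPEB4 IP over IgG IP, CPEB4 IP over Input, IgG IP over Input). None of the 5 genes called over IgG IP was called in every alternative; 8 of 17 called for CPEB4 IP over Input and 9 of 15 for IgG IP over Input were. The causes of the changes below were not tested.

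For CPEB4 IP over IgG IP, 5 genes were higher (15.2%, against 4.57% of all features). With the 2 groups alone 13 were (39.4%, against 17.1%). Without the filter 8 of 34 tested genes were higher (23.5%). With replicates 3 and 4 alone edgeR called no feature, so 0 members, and 9 members were higher at an unadjusted p under 0.05 (27.3%). For the 8 and the 9 the share of all features is not given here. Leaving out a library or a replicate number gave 0 to 7. It was 0 without replicate 1 (0.0230% of all features) and 1 without replicate 2 (3.03%, against 0.369%). It was 3 without replicate 4 (9.09%, against 1.57%) and without IgG IP replicate 4 (9.09%, against 2.44%). For omissions not named here or above, the share of all features is not given. The count of lower genes was 0 (1.30% of all features were lower). It was 1 with DESeq2's Wald test (6.65% of all features) and with the 2 groups alone (9.00%). It was also 1 with DESeq2's size factors and with a mean count of at least 50, and 2 with replicates 1 and 2 alone. Leaving out libraries gave 0 to 1 (1 without Input replicate 3). For these last settings the share of all features is not given here. The median of 0.88 was 0.57 with DESeq2's Wald test, 0.59 with DESeq2's size factors, 0.47 with Dad1 at its bound, added after seeing the data, and 0.22 to 1.08 with libraries left out, lowest without CPEB4 IP replicate 1.

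For CPEB4 IP over Input, 7 genes were higher and 4 to 10 with libraries left out (4 without replicate 2, CPEB4 IP replicate 1 or CPEB4 IP replicate 2). The lower count of 10 of 33 (30.3%) was 6 of 22 tested genes (27.3%) once a mean count of 50 was required. It was 14 of 33 (42.4%) with replicates 1 and 2 alone, 5 of 33 (15.2%) with replicates 3 and 4 alone, and 7 to 13 with libraries left out. The median of 0.01 was -0.25 with DESeq2's Wald test and with its size factors, -0.19 without the filter, -0.24 with replicates 1 and 2 alone, and -0.46 (without Input replicate 3) to 0.044 (without Input replicate 4) with libraries left out. For IgG IP over Input, the higher count of 3 was 1 with library totals alone and with the 2 groups alone, and 1 to 5 with libraries left out (1 without replicate 1 or 4 or without IgG IP replicate 1, 3 or 4, and 5 without Input replicate 4). For the changed counts over Input in this paragraph the share of all features is not given here, so they do not set these genes apart from all features.

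With the replicate number as a block, 8 genes were higher (6.01% of all features) and 0 lower (1.73%) for CPEB4 IP over IgG IP, with a median of 0.88. For CPEB4 IP over Input, 10 were higher (31.1% of all features) and 9 lower (24.9%). It changed no call of a member in these comparisons beyond those named above (Stt3a, Spcs2 and Sec11a; Sec11c, Sec63, Srpr and Tram2). For IgG IP over Input, where the numbers were not taken to pair the samples, it gave 4 higher and 13 lower. The share of all features for these counts is not given here. With replicates 1 and 2 against 3 and 4 as a 2-level block, 12 were higher (7.62% of all features) and 1 lower (2.53%) over IgG IP. For CPEB4 IP over Input, 12 were higher with it (36.4%), and the share of all features is not given here.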
